A study of Mus musculus with 4 samples.

Results

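Replication-dependent histone genes are the clustered genes that supply the bulk of the histone proteins when a cell copies its DNA. They were taken here as every row of an FPKM table whose GENCODE M21 symbol starts with Hist1h, Hist2h, Hist3h or Hist4h. The table holds 34721 entries, and 69 of the 70 symbols of this kind in the annotation have an entry. By histone type the 69 members are 6 H1, 19 H2A, 19 H2B, 12 H3 and 13 H4 genes, of which 3 are annotated as pseudogenes. By cluster, 55 belong to Hist1 on chromosome 13, 10 to Hist2 on chromosome 3, 3 to Hist3 on chromosome 11 and 1 to Hist4 on chromosome 6.

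The values come from 4 mouse oral cancer cell lines, each sequenced as 1 library. AOC3 and AOC11 were grown from primary oral tumors of male C57BL/6 mice whose cheek lining had been painted with the carcinogen DMBA, and AOC3-LN and AOC11-LN from lymph node metastases of the same animals. The cells were grown once as flank tumors and freed of fibroblasts before the lines were set up; no transgene and no treatment of the sequenced cells is recorded, and the animals also differed in their weeks of carcinogen exposure. FPKM counts fragments relative to transcript length and library depth, and the steps between low values put the depth at about 33700000 fragments in AOC3 and 28200000 in its lymph node line, with 33800000 and 32500000 in the AOC11 pair.

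Histone H2A, H2B, H3 and H4 form the core that DNA wraps around, and H1 binds the linker between cores. Their replication-dependent genes are switched on in S phase, mostly lack introns, and make mRNAs that end in a conserved stem-loop, held by the stem-loop binding protein, in place of a poly(A) tail. Some of these genes can also make longer, polyadenylated transcripts, which are known from cells that have stopped dividing. The libraries were made with a kit that captures RNA by its poly(A) tail, so the values stand for the histone transcripts that this capture retained, and how much of each gene's mRNA that was has not been measured.

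Most members were low in all lines. Over the 69 genes the median was 1.41 FPKM in AOC3 and 1.55 in its lymph node line, against 1.14 in AOC11 and 1.28 in AOC11-LN. Over the 14165 genes of the table with 1 FPKM or more in any line, the median lay between 9.91 and 10.9 FPKM. Of the members, 56 passed that filter, with medians of 1.75, 1.91, 1.53 and 1.49 FPKM in AOC3, AOC3-LN, AOC11 and AOC11-LN, and 4 reached 10 FPKM in a line: Hist1h2bc, Hist1h4i, Hist1h1c and Hist1h2bg. These 4 genes held 35.7% of the summed member FPKM in AOC3 and 29.4% in its lymph node line, but 63.0% in AOC11 and 45.9% in AOC11-LN.

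**Figure D1:**
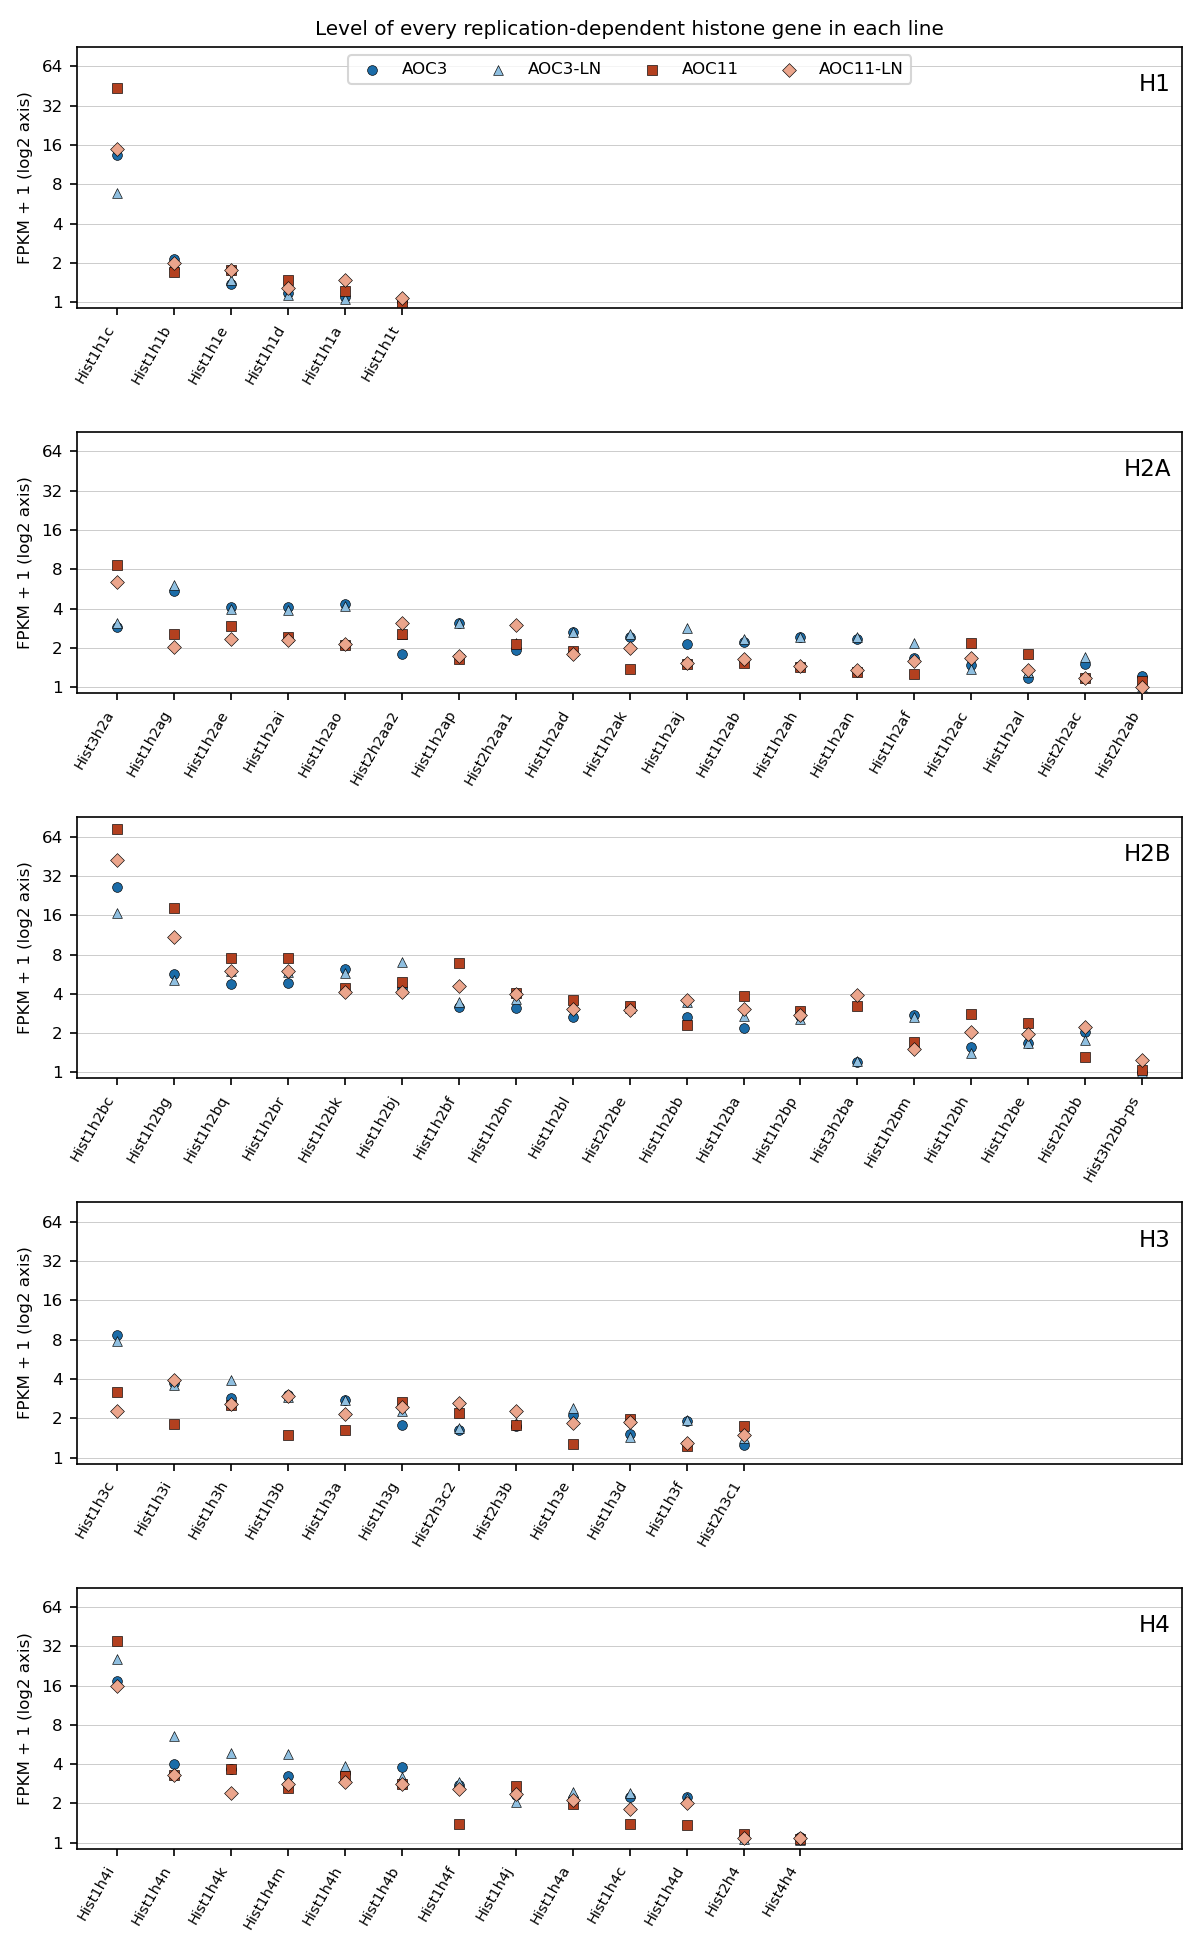
FPKM plus 1 of each of the 69 members in each line, on a log2 axis, 1 point per library, with the genes of a histone type ordered by their mean level. Hist1h2bc, Hist1h4i, Hist1h1c and Hist1h2bg have the highest means over the 4 lines, and the H2A genes mostly have the AOC3 lines above the AOC11 lines.

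The short, repetitive nature of these genes limits each value. Among the 64 members with a single annotated transcript, the median was 17.2 estimated fragments per gene and line, 50 had fewer than 50 fragments in every line, and 5 had 100 or more in every line. The median member shared 37.1% of its 100-base stretches, the length of a read, with another gene. Where a read matches several genes, Cufflinks by default divides it among them, so values of near-identical members are not independent. Only 23 members shared less than 20% of these stretches.

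The summed FPKM of all members was 165 in AOC3 and 172 in its lymph node line, against 264 in AOC11 and 174 in AOC11-LN. The AOC11 line stood above the other 3, and those 3 lay close together. Most of its excess came from the 4 abundant genes: without them the sums were 106, 121, 97.7 and 94.3 in the same order of lines. H2B genes made up 38.2% of the sum in AOC3 and 34.6% in AOC3-LN, against 51.8% in AOC11 and 52.3% in AOC11-LN. H2A genes made up 18.2% and 19.1% in the AOC3 lines, against 8.56% and 11.8% in the AOC11 lines. The H2A sum divided by the H2B sum was thus 0.48 in AOC3 and 0.55 in its lymph node line, against 0.17 in AOC11 and 0.23 in AOC11-LN, and without Hist1h2bc it was 0.80, 0.75, 0.35 and 0.41.

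**Figure D2:**
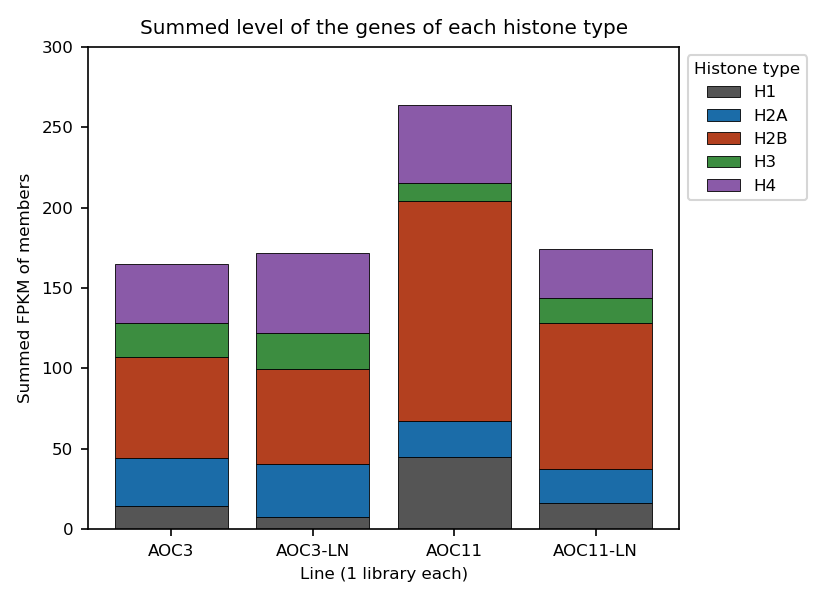
Summed FPKM of the members of each histone type, stacked, in each line, with 1 library per bar. The AOC11 line reaches 264 and the other 3 lines lie between 165 and 174, and the H2B part is the tallest in every line.

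The AOC3 lines and the AOC11 lines differed by histone type more than as a whole. H2A genes were mostly higher in both AOC3 lines, while the order of the H2B genes changed with the scaling of the lines. Over all 69 members, 29 were higher in both AOC3 lines than in either AOC11 line, 23 were lower in both, and 17 overlapped. Among the 56 that passed the filter, 27 were higher in both AOC3 lines, against 22.5% of all genes that passed it, and 16 were higher in both AOC11 lines, against 30.5% of all genes. The filter sets part of this contrast, since it removed 2 of the 29 and 7 of the 23, and 11 of the members that passed it were under 1 FPKM in both AOC11 lines and 6 in both AOC3 lines.

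By type, 13 of 19 H2A genes were higher in both AOC3 lines and 3 in both AOC11 lines. For H4 the numbers were 9 and 1 of 13, and for H3 they were 5 and 4 of 12. Of the 19 H2B genes, 2 were higher in both AOC3 lines and 11 in both AOC11 lines. Of the 6 H1 genes, 4 were higher in both AOC11 lines and none in both AOC3 lines, except that Hist1h1b was higher in both AOC3 lines after either scaling described next. The H2A count stayed at 13 after quantile normalization and after scaling each line to the median of its expressed genes. The H2B count of 11 became 6 and 7 of 19. This was near the 26.7% and 25.8% of all genes that passed the filter and were higher in both AOC11 lines under these scalings. The counts by type take all members, including those that did not pass the filter. The H4 count of 9 became 6 and 10, against 26.3% and 27.1% of all genes higher in both AOC3 lines, and the H3 counts of 5 and 4 for the AOC3 and AOC11 lines became 7 and 3 after quantile normalization and 6 and 2 after median scaling. Among members that shared less than 20% of their 100-base stretches, 2 of 5 H2A genes were higher in both AOC3 lines and 2 in both AOC11 lines, so the H2A order rests mainly on genes that share reads with each other.

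On quantile-normalized log2(FPKM + 1) values, 3 members had a log2 difference above 1 for the AOC3 lines minus the AOC11 lines, against 5.10% of all genes, and 5 had one below -1, against 6.0%. The 3 are Hist1h3c, Hist1h2ag and Hist1h2ao, and the 5 are Hist3h2ba, Hist1h2bc, Hist1h1c, Hist1h2bg and Hist3h2a. With 8 of 56 members past the threshold and 11.1% of all genes past it, the share was near that of the genome. The differences understate the change of low genes, because 1 is added before the logarithm. With a pseudocount of 0.1 the numbers were 17 higher and 6 lower, against 18.5% of all genes.

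The median log2 difference over the 56 members was 0.36, with 34 above 0, and over all genes it was 0.01. Over all 69 members it was 0.13, with 38 above 0 and 31 below. It was 0.68 for 16 H2A genes, 0.51 for 9 H3 genes, 0.48 for 11 H4 genes and -0.20 for 18 H2B genes, and these signs were the same without quantile normalization and after median scaling. The median over all members turned to -0.24 among the 13 members that reached 5 FPKM in a line, and to -0.19 among the 22 with an annotated transcript of at least 600 bases. In limma's moderated test, with the primary and lymph node line of an animal in the place of replicates, 0 members had a Benjamini-Hochberg adjusted p under 0.05, against 0.205% of all genes, and the lowest adjusted p of a member was 0.105, for Hist3h2ba, which passed the filter through the AOC11 lines alone. At an unadjusted p under 0.05 there were 12 members, against 18.7% of all genes. These p-values measure only the spread between the 4 lines, since each group is 1 animal with 1 library per line.

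H1c had the highest levels of the 6 H1 members. Hist1h1c (ENSMUSG00000036181.2, chromosome 13, 23738808 to 23740367, mm10) stood at 12.5 FPKM in AOC3 and 5.91 in its lymph node line, against 42.6 in AOC11 and 13.8 in AOC11-LN. The AOC11 line was far above the rest, AOC11-LN was only just above AOC3, and each lymph node line was lower than the primary line of its animal. The AOC11 lines had 3.07 times the mean FPKM of the AOC3 lines (log2 difference -1.32, SE 0.59, adjusted p = 0.319 in limma with Benjamini-Hochberg adjustment). Without the AOC11 line, or without AOC3-LN, the difference no longer passed 1. The other H1 members were low in all lines. Hist1h1b had 1.13, 0.961, 0.689 and 1.004 FPKM in the order AOC3, AOC3-LN, AOC11 and AOC11-LN, and Hist1h1e had 0.382, 0.476, 0.752 and 0.770. Hist1h1t, known from the testis, was listed at 0 in 3 lines and at 0.0819 FPKM in AOC11-LN.

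Among H2B genes, Hist1h2bc (ENSMUSG00000018102.5, chromosome 13, 23684199 to 23692908) had the highest mean over the 4 lines of any member, although Hist1h4i was above it in AOC3-LN. It had 25.3 FPKM in AOC3 and 15.7 in its lymph node line, against 72.7 in AOC11 and 41.2 in AOC11-LN. Both AOC11 lines lay above both AOC3 lines, by 2.78 times in the mean, and the log2 difference was -1.34 (SE 0.35, adjusted p = 0.170 in limma). Its annotated transcript is spliced from 2 exons and holds no histone stem-loop. Hist1h2bg had 4.70, 4.13, 17.1 and 9.97 FPKM in the same order of lines, a mean 3.07 times higher in the AOC11 lines and a log2 difference of -1.28. Its protein is the same as that of Hist1h2bc and Hist1h2be, and these 3 genes together had 30.7, 20.5, 91.2 and 52.1 FPKM. Hist1h2bq and its near copy Hist1h2br followed, with 3.80, 5.03, 6.58 and 4.97 FPKM for the former and 3.82, 4.84, 6.56 and 4.98 for the latter. They share 96.9% and 91.5% of their 100-base stretches with other genes, so their separate values are uncertain.

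Both protein-coding genes of the Hist3 cluster were higher in both AOC11 lines. Hist3h2ba (ENSMUSG00000056895.4, chromosome 11, 58948920 to 58949533), an H2B gene, had 0.197 FPKM in AOC3 and 0.231 in its lymph node line, against 2.24 in AOC11 and 2.89 in AOC11-LN. It had about 3 estimated fragments in each AOC3 line, against 32.4 and 42.5 in the AOC11 lines, and the ratio of the AOC11 to the AOC3 lines was 11.9 with a 95% interval of 5.20 to 33.4 for counting error alone. Only 4.85% of its 100-base stretches occur in another gene. Its log2 difference was -1.49 (SE 0.26, adjusted p = 0.105 in limma) and stayed below -1 without any single line. Hist3h2a had 1.89, 2.13, 7.65 and 5.35 FPKM, 3.23 times higher in the AOC11 lines, but its long transcript overlaps Trim17 on the same strand, and 29.8% of its stretches are shared. The pseudogene Hist3h2bb-ps was listed at 0 in both AOC3 lines and at 0.0529 and 0.253 FPKM in AOC11 and AOC11-LN, from 0.5 and 2.5 estimated fragments, too few to tell the lines apart. The Hist4 gene, Hist4h4, stayed between 0.0512 and 0.108 FPKM.

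Without the AOC11 library, 4 of the 5 differences below -1 were lost (Hist3h2a, Hist1h2bg, Hist1h1c and Hist1h2bc), and only Hist3h2ba remained. Their differences were then -0.96 for Hist3h2a, -0.93 for Hist1h2bg and -0.94 for Hist1h2bc, just short of the threshold, and -0.54 for Hist1h1c. The split was then 7 higher and 1 lower in the AOC3 lines, of 56 members, against 13.7% of all genes past the threshold. For Hist1h2bc, Hist1h2bg and Hist3h2a both AOC11 lines still lay above both AOC3 lines, by a smaller margin in AOC11-LN.

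By the mean over the 4 lines, Hist1h2ag and Hist1h2ae followed Hist3h2a among H2A genes, but the ranking differed from line to line. Hist1h2ag (ENSMUSG00000069301.5, chromosome 13, 22042460 to 22042944) had 4.50 FPKM in AOC3 and 5.03 in its lymph node line, against 1.56 in AOC11 and 1.04 in AOC11-LN. The AOC3 lines were close to each other and 3.67 times above the AOC11 lines in the mean, with a log2 difference of 1.41 (SE 0.31, adjusted p = 0.138 in limma). Hist1h2ag shares 76.2% of its 100-base stretches with another gene, and it had 15.7 and 11 estimated fragments in AOC11 and AOC11-LN. Hist1h2ae had 3.14, 2.96, 1.95 and 1.33 FPKM, and Hist1h2ao 3.33, 3.17, 1.09 and 1.14. The 2 AOC3 lines again lay close together above both AOC11 lines. Hist1h2ao had a log2 difference of 1.07, which was no longer above 1 without AOC11-LN, and it shares 92.7% of its 100-base stretches. These 3 genes and 6 others encode the same H2A protein, and the 9 together had 20.9 FPKM in AOC3 and 20.99 in its lymph node line, against 9.62 in AOC11 and 8.03 in AOC11-LN.

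Among H3 genes, Hist1h3c (ENSMUSG00000069310.4, chromosome 13, 23744973 to 23745602) had the highest mean over the 4 lines, although 6 other H3 genes were above it in AOC11-LN, with 7.75 FPKM in AOC3 and 6.84 in its lymph node line, against 2.20 in AOC11 and 1.28 in AOC11-LN. It was 4.18 times higher in the AOC3 lines, and its log2 difference of 1.70 was the largest of any member with a pseudocount of 1, whereas with 0.1 that of Hist3h2ba was larger, at -2.98 against 2.19. In limma its SE was 0.33 and its adjusted p 0.120, with the pseudocount of 1. By estimated fragments, 213 over the AOC3 lines stood against 53 over the AOC11 lines, a ratio with a 95% counting interval of 3.08 to 5.76. Hist1h3i showed another order, with 2.75, 2.60, 0.814 and 2.92 FPKM, low in the AOC11 line alone. Hist1h3h had 1.84, 2.91, 1.51 and 1.56 FPKM. Without Hist1h3c, the H3 genes summed to 13.3 FPKM in AOC3 and 15.1 in its lymph node line, against 9.30 in AOC11 and 14.4 in AOC11-LN.

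All 13 H4 genes encode 1 protein. Hist1h4i (ENSMUSG00000060639.5, chromosome 13, 22040636 to 22041362) had 16.4 FPKM in AOC3 and 24.8 in its lymph node line, against 33.8 in AOC11 and 15.0 in AOC11-LN. The animals overlapped, and the highest and the lowest line both came from the AOC11 animal. Hist1h4n had 2.98, 5.54, 2.29 and 2.31 FPKM, highest in AOC3-LN, and Hist1h4k had 2.67, 3.88, 2.66 and 1.42. Without Hist1h4i, the H4 genes summed to 20.1, 25.4, 14.7 and 15.4 FPKM.

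A number of members were low in the AOC11 line alone, a pattern picked out after the values were seen. In 9 of the 56 members that passed the filter, the AOC11 value was under 1/2 of the value in each of the other 3 lines, against 4.74% of all genes. They are the H3 genes Hist1h3b, Hist1h3e and Hist1h3i, the H4 genes Hist1h4c, Hist1h4d and Hist1h4f, the H2A genes Hist1h2af and Hist1h2ak, and the H2B gene Hist2h2bb. Hist1h4d, which shares none of its 100-base stretches with another gene, had 1.25 FPKM in AOC3 and 1.19 in its lymph node line, against 0.375 in AOC11 and 1.011 in AOC11-LN, from 40.9, 32.9, 12.1 and 32.1 estimated fragments. Hist1h3b had 2.02, 1.91, 0.491 and 1.94 FPKM, from 31.0, 25.1, 7.2 and 28.9 fragments. The other 7 also rest on few fragments in that line: Hist1h2af, Hist1h2ak, Hist1h4f and Hist2h2bb had 1.8, 2.6, 2.7 and 2.0, and Hist1h3e, Hist1h3i and Hist1h4c had 5.7, 6.2 and 8.2. As the genes were picked by this pattern, it was not tested on them.

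Of the 55 Hist1 genes on chromosome 13, 54 lie in a pair of dense blocks, and the pseudogene Hist1h2al lies apart from them. The first, from 21715763 to 22043676, holds 24 members. Of these, 14 were higher in both AOC3 lines, against 22.5% of all genes that passed the filter. Another 4 were higher in both AOC11 lines, against 30.5%. All 8 H2A genes of that block were higher in both AOC3 lines, also after quantile normalization and median scaling, while 3 of its 8 H2B genes were higher in both AOC11 lines and 0 after either scaling. The second block, from 23531050 to 23934156, holds 30 members, 14 higher in both AOC3 lines and 13 in both AOC11 lines, and 4 of its 5 H2A genes were higher in both AOC3 lines under each scaling. Of its 7 H2B genes, 6 were higher in both AOC11 lines as deposited and after median scaling, and 4 after quantile normalization. The first block summed to 73.2, 93.7, 80.3 and 57.4 FPKM in the order AOC3, AOC3-LN, AOC11 and AOC11-LN, and the second to 82.1, 67.2, 164 and 97.0. Of the 10 Hist2 genes on chromosome 3, 1 was higher in both AOC3 lines and 2 in both AOC11 lines, and they summed to 7.30, 8.33, 8.36 and 11.001 FPKM.

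**Figure D3:**
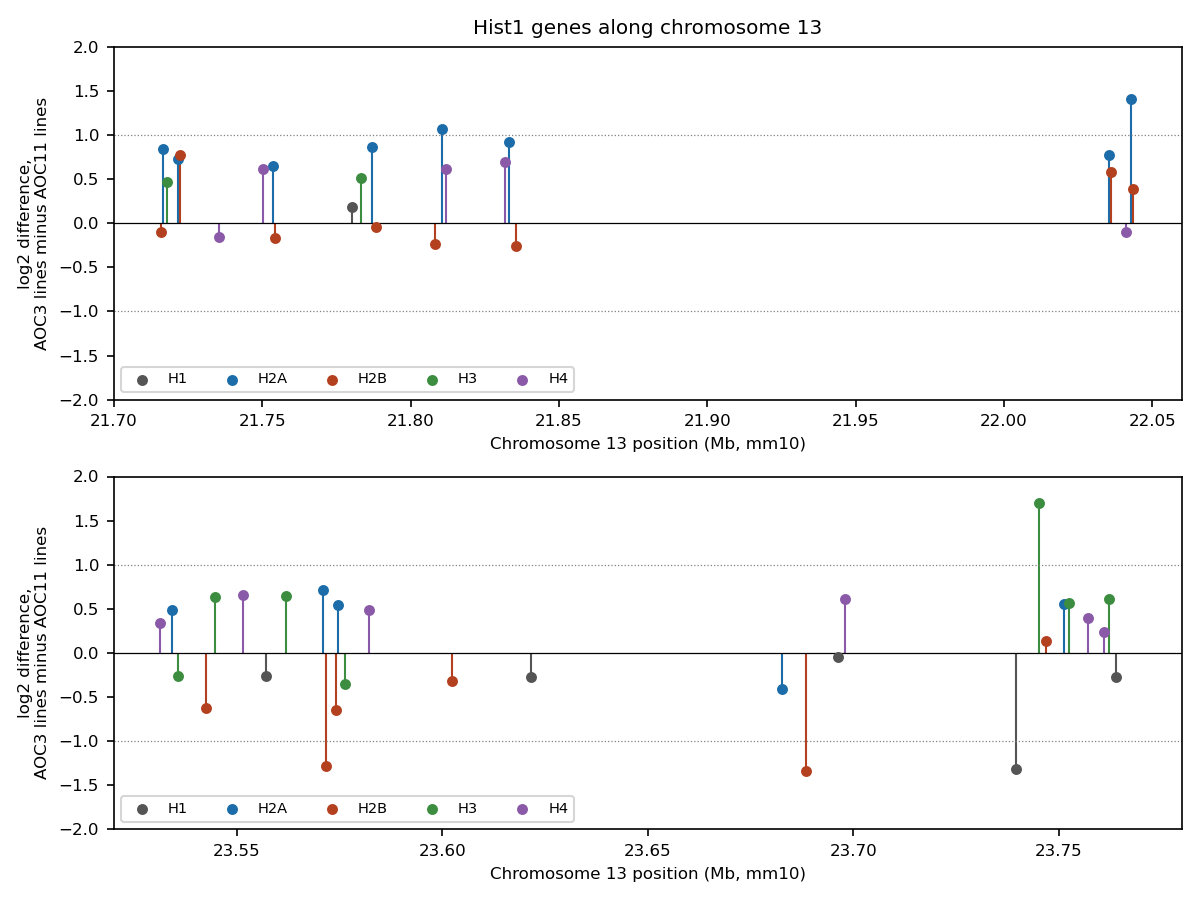
Log2 difference, AOC3 lines minus AOC11 lines, of 53 of the 55 Hist1 members at their position on chromosome 13 (mm10), 1 stem per gene colored by histone type, with dotted lines at 1 and -1. H2A genes mostly point up, and the longest downward stems are Hist1h2bc, Hist1h1c and Hist1h2bg.

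Many H2A and H2B genes sit head to head and start from the same short stretch of DNA. There were 13 such pairs, with 172 to 301 bases between their starts. In 11 of the 13 the log2 difference of the H2A gene was above that of its H2B partner. The exceptions, Hist3h2a with Hist3h2bb-ps and Hist1h2aj with Hist1h2bm, each hold a pseudogene. Counted singly, 11 pairs had the H2A gene higher in both AOC3 lines, and 7 had the H2B gene higher in both AOC11 lines. The pair counts repeat the difference between the types, and any effect of pairing was not tested. In 5 pairs the H2A gene was higher in both AOC3 lines while the H2B gene was higher in both AOC11 lines. That number was 2 after quantile normalization and after median scaling, namely Hist1h2ae with Hist1h2bg and Hist1h2ad with Hist1h2bf. The pair of Hist1h2ae and Hist1h2bg, 175 bases apart, was the farthest apart in its differences, at 0.72 for Hist1h2ae and -1.28 for Hist1h2bg. Hist1h2ad had 1.63, 1.63, 0.906 and 0.806 FPKM, whereas its partner Hist1h2bf, 184 bases away, had 2.19, 2.48, 5.86 and 3.60, so this pair also ran in opposite orders. Hist1h2ac and Hist1h2bc were both higher in the AOC11 lines, and Hist1h2aj and Hist1h2bm were both higher in the AOC3 lines.

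**Figure D4:**
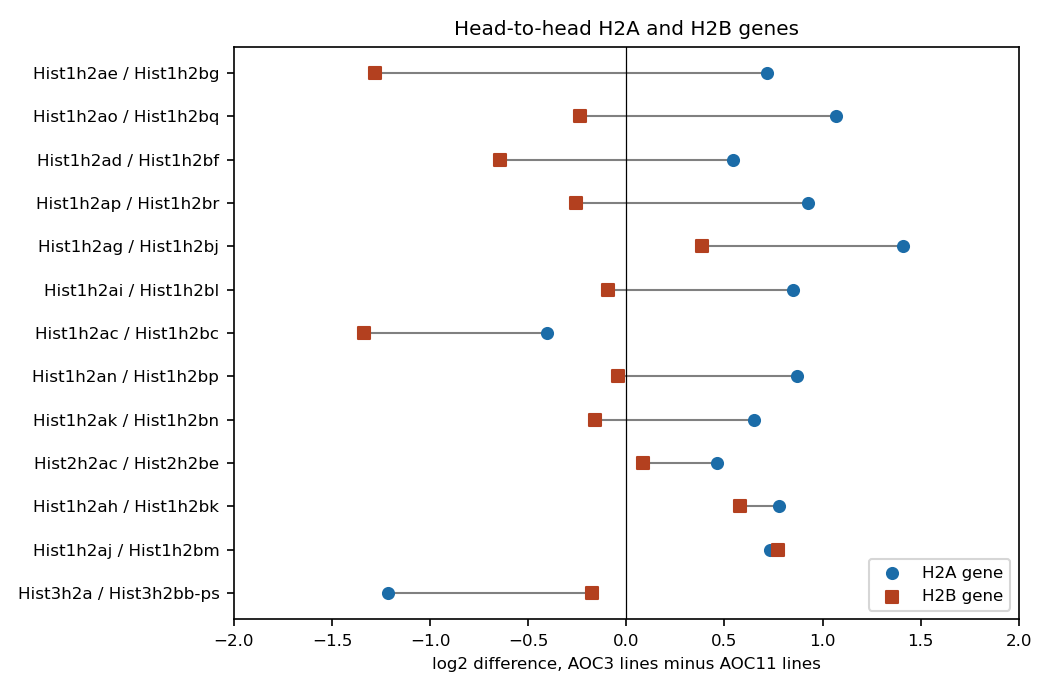
Log2 difference, AOC3 lines minus AOC11 lines, of the H2A gene (circle) and the H2B gene (square) of each of 13 head-to-head pairs, joined by a line. In 11 pairs the circle lies to the right of the square.

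The shared start region of Hist1h2ae and Hist1h2bg is shown because its genes ran in opposite orders although they are transcribed from the same stretch. The RefSeq promoter window of Hist1h2bg in GRCm38.p6, chr13:23571150-23571449 on the plus strand, contains both annotated starts. Capitals mark the octamer ATTTGCAT, which is bound by Oct-1 in H2B promoters, the letters TATAAA, and CCAAT or its reverse complement ATTGG.
Hist1h2bg: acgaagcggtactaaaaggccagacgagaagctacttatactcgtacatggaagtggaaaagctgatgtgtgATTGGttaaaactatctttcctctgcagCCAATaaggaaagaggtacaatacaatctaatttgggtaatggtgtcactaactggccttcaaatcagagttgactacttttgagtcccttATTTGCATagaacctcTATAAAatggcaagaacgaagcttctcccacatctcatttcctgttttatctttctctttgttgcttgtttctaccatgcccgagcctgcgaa
Promoter windows of the same length were found for 60 members. The octamer, on either strand, was in 6 of 16 H2A windows and 7 of 16 H2B windows, in none of the H1, H3 and H4 windows, and in 1.74% of all 32851 windows. TATAAA on the sense strand was in 9 of 16 H2A, 4 of 16 H2B, 4 of 10 H3, 8 of 12 H4 and 4 of 6 H1 windows, against 8.32% of all. CCAAT on either strand was in every H1, H2A, H2B and H3 window and in 3 of 12 H4 windows, against 37.4% of all. A match says only that the letters are there. Windows of head-to-head partners can overlap, so the same site can count for both genes. The windows of Hist1h2ae and Hist1h2bg share their octamer.

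The annotated transcripts fall into classes by how they end. A histone stem-loop with a 6-base stem and a 4-base loop was found after the coding sequence of 46 members. It lay near the end of the transcript in 23, as in the processed histone mRNA, and the transcript ran on for more than 100 bases past it in another 23. The annotation of 14 members stops at the coding sequence, so no stem-loop could be looked for there, and in 6 no stem-loop was found. The core was the same in 26 members of the H1, H2A, H2B and H3 types, and 7 H4 genes shared another. The stem-loops of members named above are printed to show how little they differ, with the stem in capitals and the loop and flanks in lower case, each read on the strand of its gene. In mm10 they lie at chr13:23739507-23739532 on the plus strand (Hist1h1c), chr13:22042478-22042503 on the minus strand (Hist1h2ag), chr13:23571838-23571863 plus (Hist1h2bg), chr11:58949344-58949369 plus (Hist3h2ba), chr13:23745042-23745067 minus (Hist1h3c) and chr13:22040961-22040986 minus (Hist1h4i).
Hist1h1c: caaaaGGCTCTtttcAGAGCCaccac
Hist1h2ag: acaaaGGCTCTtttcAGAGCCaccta
Hist1h2bg: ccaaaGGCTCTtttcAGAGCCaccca
Hist3h2ba: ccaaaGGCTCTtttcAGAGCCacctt
Hist1h3c: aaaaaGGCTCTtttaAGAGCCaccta
Hist1h4i: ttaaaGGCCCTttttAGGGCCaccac
Hist1h2bg, Hist1h1c, Hist3h2ba and Hist3h2a carry the same core as Hist1h2ag, although they were higher in the AOC11 lines and Hist1h2ag in the AOC3 lines.

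The orders of the lines were counted by class, and the difference between classes was not tested. Counts take all members of a class, while shares of all genes are over genes that passed the filter. Of the 23 members that end near the stem-loop 22 passed it, and of the 23 that run on past it 15 did. Of the 23 members whose transcript ends near the stem-loop, 15 were higher in both AOC3 lines, against 22.5% of all genes, and 3 in both AOC11 lines, against 30.5%. After quantile normalization these numbers were 15 and 1, and after median scaling 16 and 1. Of the 23 whose transcript runs on past it, 6 were higher in both AOC3 lines and 13 in both AOC11 lines, with 5 and 10 after quantile normalization and 7 and 12 after median scaling. The former summed to 55.4 FPKM in AOC3 and 63.8 in its lymph node line, against 38.1 in AOC11 and 38.6 in AOC11-LN, and the latter to 49.8, 51.2, 118 and 60.8. Without Hist1h4i, Hist1h1c and Hist1h2bg, which carry most of it, the sum of the long class was 16.1, 16.4, 24.5 and 21.97 FPKM. All 5 members with differences below -1 are of the long class or, for Hist1h2bc, have no stem-loop in the annotation. The letters of a poly(A) signal, AATAAA or ATTAAA, were searched for in the last 50 bases of the longest transcript. They occurred in 12 of the 23 long members and in 2 of the 23 that end near the stem-loop. They occurred in 0 of the 14 that stop at the coding sequence and in 68.8% of all protein-coding genes. Hist1h1c, Hist3h2ba and Hist3h2a had a match, and Hist1h2bg and Hist1h2bc had none. The class also moves with shared sequence, with a median of 15.1% shared stretches in the long class and 46.4% in the class that ends near the stem-loop. It moves with histone type too, with 3 H2A and 4 H1 genes in the long class and 8 H2A genes in the other. The part of class, shared sequence or type in the orders was not tested.

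Between AOC3-LN and AOC3 few members differed. None had a log2 difference above 1, against 2.11% of all genes, and none below -1, against 3.42%. Hist1h1c was the nearest to that threshold at -0.87, and Hist1h2bc was at -0.60. By estimated fragments, Hist1h1c in AOC3 was 2.10 times AOC3-LN (95% counting interval 1.81 to 2.46), and Hist1h2bc was 1.61 times (1.43 to 1.81). AOC3-LN was above AOC3 in Hist1h4i, by 1.51 times (1.30 to 1.76), in Hist1h2bj, by 1.79 times (1.14 to 2.84), and in Hist1h4n, by 1.82 times (1.10 to 3.06). Over the members with a single transcript and any fragments, the counting interval of the ratio excluded 1 for these 5 of 62. Most differences of this pair were thus not detectable at this depth, and no share over all genes was computed for these intervals. The intervals leave out the error of dividing shared reads, and Hist1h2bj and Hist1h4n share 40.1% and 80.7% of their 100-base stretches. The median log2 difference of the 56 members was 0.20, with 47 above 0, but 0.06 with 36 above 0 without quantile normalization.

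Between AOC11-LN and AOC11, the abundant members were lower in the lymph node line. Hist1h1c had a log2 difference of -1.56 and Hist1h4i of -1.12, the only 2 members below -1, against 3.14% of all genes, and none was above 1 after quantile normalization, against 4.97%. Hist1h1c in AOC11 was 3.08 times AOC11-LN (95% counting interval 2.82 to 3.38), Hist1h4i 2.26 times (1.95 to 2.61), Hist1h2bc 1.77 times (1.65 to 1.89) and Hist1h2bg 1.72 times (1.40 to 2.12). H2B genes were lower in AOC11-LN in 15 of 18 cases under each scaling tried. Of the 9 H3 genes, 5 were higher in AOC11-LN, or 7 without quantile normalization. Hist1h3i had 3.59 times the FPKM of AOC11, a log2 difference of 0.83 that was 1.11 without quantile normalization and 1.10 after median scaling, past the threshold in both. The counting interval of the ratio excluded 1 for 14 of 64 members, 9 lower in AOC11-LN and 5 higher. The 5 are Hist1h2bb, Hist1h3b, Hist1h3e, Hist1h3i and Hist1h4d. Here too no share over all genes was computed. The median over the 56 members was -0.26 with 41 below 0, but -0.01 with 28 below 0 without quantile normalization, so for the members as a whole no direction can be given. With 1 library on each side no test was possible, and in RNA of whole cultures fewer cells in S phase cannot be told apart from less RNA per cell.

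In both animals the lymph node line had less Hist1h1c and Hist1h2bc than the primary line. They are among 17 of the 69 members with lower FPKM in the lymph node line of both animals. No share over all genes was computed for this pattern.

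Histone variants that can be expressed outside S phase ranged from under 1 FPKM to levels far above any member. H2afz, the gene of H2A.Z, had 708 FPKM in AOC3 and 652 in its lymph node line, against 743 in AOC11 and 693 in AOC11-LN. H3f3b and H3f3a, which encode H3.3, had 586, 529, 506 and 507 FPKM for the former and 241, 193, 260 and 370 for the latter. H3f3a and H3f3b together were 39.3, 32.9, 66.6 and 55.9 times the sum of all H3 members. These ratios are of RNA that poly(A) capture retained, and replication-dependent histone mRNAs mostly end without a poly(A) tail. The ratio of the mRNAs in the cells was not measured. Of the 11 variants, 1 was above 1 and 1 below -1 between the AOC3 and AOC11 lines, against 5.10% and 6.0% of all genes. Their median was 0.07, but -0.08 without quantile normalization and -0.01 after median scaling. H2afj, an H2A variant, had 44.2, 87.3, 19.4 and 51.6 FPKM (log2 difference 1.009), and H2afy2, a macroH2A gene, had 0.442, 0.245, 0.222 and 13.7 (log2 difference -1.66), high in AOC11-LN alone. The linker variant H1f0, known from cells that have stopped dividing, had 109, 71.8, 114 and 140 FPKM.

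For genes that make and remove histone mRNA, the count past the threshold was not above the 11.1% of all genes. Of the 22 listed genes 20 passed the filter, 1 was above 1 and none below -1 between the AOC3 and AOC11 lines, and the median was 0.16. Slbp, the stem-loop binding protein, had 50.8 FPKM in AOC3 and 50.9 in its lymph node line, against 68.5 in AOC11 and 53.3 in AOC11-LN, so it was highest in the AOC11 line. Ncbp2, a subunit of the cap-binding complex, had 34.4, 48.5, 18.3 and 23.0 FPKM (log2 difference 1.02), and its partner Ncbp1 had 62.9, 75.7, 44.2 and 40.4. Pou2f1, the gene of Oct-1, had 6.86, 7.27, 5.10 and 3.99 FPKM. The most abundant were Snrpb and Snrpd3, Sm proteins shared by many small nuclear RNPs, with 316, 360, 324 and 335 FPKM and 223, 249, 240 and 195 FPKM, followed by Srrt, a partner of the cap-binding complex, with 63.2, 66.8, 97.1 and 95.2. Npat, the coactivator that sits at the histone clusters, had 8.23, 5.93, 6.001 and 4.79 FPKM.

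Of 21 histone chaperones, none was above 1 or below -1, against 11.1% of all genes. The median was 0.01, or -0.02 without quantile normalization. Mms22l had the largest difference of the list, with 15.1 FPKM in AOC3 and 18.6 in its lymph node line, against 10.7 in AOC11 and 9.70 in AOC11-LN, followed by Rbbp4 with 70.7, 75.1, 46.3 and 47.3 and Ubn1 with 11.6, 12.2, 8.88 and 6.97. Nap1l1 was the most abundant, with 282, 336, 347 and 282 FPKM, then Ssrp1 with 194, 192, 221 and 215 and Nasp, the H3 and H4 chaperone, with 92.0, 93.9, 83.4 and 104.

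Genes of S phase and proliferation differed by gene and by line. Of 31 listed genes 30 passed the filter. Between the AOC3 and AOC11 lines 1 was above 1 and none below -1, against 11.1% of all genes past the threshold, and the median was -0.08. Cdkn1a, an inhibitor of the cell cycle, had 14.6, 23.76, 6.97 and 7.64 FPKM (log2 difference 1.30), Cdkn1b had 18.4, 14.7, 23.9 and 40.5, and Pole, a DNA polymerase, had 13.03, 12.3, 28.2 and 20.2. Cdk1 had 370, 338, 372 and 320 FPKM, Top2a 247, 199, 228 and 248, and Pcna 223, 242, 240 and 204. In AOC11-LN, 26 of the 30 genes were lower than in AOC11, with a median of -0.30, while 7270 of all 14165 genes were lower. Only Rrm2, which supplies deoxynucleotides, passed the threshold, at -1.08, with 245 FPKM in AOC11 and 122 in AOC11-LN. In AOC3-LN, 16 of 30 were lower than in AOC3, with a median of -0.06. That direction changed with the scaling, with 20 lower without quantile normalization, but 13 lower and a median of 0.02 after median scaling. Most genes of this list and the abundant histone members were thus lower in AOC11-LN than in AOC11, and any link between them was not tested.

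Markers of epithelial cells were high, and those of other cells were close to 0. The 6 epithelial markers summed to 3450 FPKM in AOC3 and 3492 in its lymph node line, against 2736 in AOC11 and 3052 in AOC11-LN, with Krt18 the most abundant. Krt5 had 499, 275, 4.99 and 17.0 FPKM, low in both AOC11 lines, whereas Krt14 had 166, 150, 257 and 259, higher in both. Of the 6, 4 had a log2 difference above 0 for the AOC3 minus the AOC11 lines and 2 below 0. The 6 fibroblast markers summed to 0.241, 0.314, 0.490 and 1.05 FPKM, the most abundant being Col1a1 and Pdgfra. The 5 leukocyte markers summed to at most 0.0841 FPKM in a line, with Cd3e listed at 0 in all 4, and the 2 endothelial markers to at most 0.374. None of these 13 markers of other cells reached 1 FPKM in any line.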

How the data were processed

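Per the labels and the methods, the authors trimmed reads with Trim Galore, aligned them to mm10 with TopHat2 and estimated FPKM with Cufflinks on GENCODE M21. The deposited FPKM were neither log-transformed nor quantile-normalized. Here log2(FPKM + 1) of the 34721 entries was quantile-normalized, a gene was kept if any line reached 1 FPKM, and the threshold was a log2 difference of 1 in either direction. limma 3.58.1 in R 4.3.3 (lmFit, eBayes with trend, Benjamini-Hochberg over all 14165 genes) was fitted to the 4 lines, with the lines of an animal as replicates. Fits were tested on simulated data.

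Fragments were estimated from steps of low FPKM in 9528 single-transcript genes; 72.5% to 75.5% of values fell within 0.1 of a whole number, against 20% by chance. Intervals of ratios come from exact binomial (Clopper-Pearson) limits and cover counting error only, not the division of shared reads.

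Members and lists were chosen with earlier results of these data known. Named are the 3 most abundant members of each type, every member past the threshold, and Hist3 and Hist4 members. Of each other list, except the cell-type markers, the 3 largest differences and the 3 most abundant are named. Others were named for annotation or chosen after their values were seen. Alternatives changed the pseudocount, filter, scaling, gene types, members, threshold, covariate and lines.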

Additional observations from a re-analysis of the deposited data

Results flagged for a closer look

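The shift from the primary to the lymph node line had opposite signs in the AOC3 and AOC11 animals for several groups of genes. Each animal gives 1 pair of libraries, so the difference between the animals was not tested. Over all members the median log2 difference was 0.20 for AOC3-LN, against -0.26 for AOC11-LN. It was 0.21 and -0.18 for H2A, 0.12 and -0.43 for H2B, and 0.28 and -0.21 for H4. For the members this depends on quantile normalization, and H2A and H4 have no opposite signs without it: the AOC11-LN medians were then -0.01 over all members, 0.03 for H2A, -0.25 for H2B and 0.01 for H4, and the AOC3-LN medians were 0.06, 0.06, 0.02 and 0.14.

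The replication-independent variants ran the other way, with medians of -0.12 and 0.47 in the AOC3 and AOC11 animals, which were -0.15 and 0.48 without quantile normalization. The genes of histone mRNA transcription, processing and decay had medians of 0.13 and -0.14.

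Hist1h4i had log2 differences of 0.61 (AOC3-LN) and -1.12 (AOC11-LN), from 311.2, 400.7, 618.1 and 275.6 estimated fragments in AOC3, AOC3-LN, AOC11 and AOC11-LN, and both counting intervals of its ratios exclude 1. Hist1h4k had 0.56 and -0.84, from 13.1, 17.3, 11.3 and 7.0 fragments, and both of its counting intervals (0.66 to 3.23 and 0.18 to 1.55) include 1, so this shift is within counting error.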

How the results depend on the processing

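With a pseudocount of 0.1, the number of members past the threshold was 23 for the AOC3 against the AOC11 lines, 2 for AOC3-LN against AOC3 and 10 for AOC11-LN against AOC11, against 18.5%, 10.2% and 14.6% of all genes, and the lymph node medians were 0.32 and -0.45. At 1.5-fold the counts were 25, 8 and 14 of 56, against 26.9%, 13.8% and 24.6% of all genes. Among members at 5 FPKM or more in a line, the median between the animals was -0.24 and that of AOC11-LN -0.59. Among members with a transcript of at least 600 bases the 3 medians were -0.19, 0.0889 and -0.45. Without quantile normalization the lymph node medians were 0.0587 and -0.00807, and after median scaling that of AOC11-LN was -0.0201. Summed FPKM without Hist1h2bc was 140 in AOC3 and 156 in its lymph node line, against 191 in AOC11 and 133 in AOC11-LN, and the sum of all members scaled by the median of expressed genes was 182 in AOC3-LN. The cause of these changes was not tested. Leaving out each line in turn gave 7 to 10 of 56 members past the threshold between the animals, against 10.3% to 13.8% of all genes. The medians were then from 0.17 to 0.44. With a line left out, limma called 0% of all genes, so its 0 members there say nothing about the members; the lone line was assumed to vary like the other pair. With site (primary or lymph node) as a covariate it called 0 members and 0.219% of all genes. With protein-coding genes only it called 0 of 55 members, against 2.28% of all genes.

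Chosen after seeing the data, the subset with less than 20% of 100-base stretches shared held 14 members that passed the filter. Of these, 2 were past the threshold between the animals, against 11.1% of all genes, and the 3 medians were -0.00463, 0.0930 and -0.38. Also chosen after seeing the data, H2B members higher in both AOC11 lines numbered 6 after quantile normalization and 7 after median scaling, H4 members 0 after quantile normalization, and H3 members 2 after median scaling. The orders of transcript classes, blocks and pairs under other scalings, and the long class without its abundant genes, were chosen after seeing the data too.

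Depth limits most members, 50 of 64 having fewer than 50 fragments in every line.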
